A study of Homo sapiens with 6 samples.

Results

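The 10 genes described here encode the core chaperones and proteases of mitochondria: HSPD1, HSPE1, HSPA9, GRPEL1, TRAP1, LONP1, CLPX, CLPP, YME1L1 and AFG3L2. The list was set by name and function, with earlier results of these data known, and no measured value entered the rule. All 10 were found among the 26255 genes listed in each sample. The study treated 22RV1 cells, a human castration-resistant prostate cancer (CRPC) cell line, for 24 h with the vehicle DMSO (3 samples) or with 10 nM bruceantin (BCT, 3 samples), in medium with fetal bovine serum. BCT is a plant quassinoid known as an inhibitor of protein synthesis, and the study asked whether it acts through HSP90, the chaperone family to which TRAP1 belongs. All samples come from 1 cell line, and no source says whether the replicates were separate cultures, so p-values measure only the spread between these samples.

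Most mitochondrial proteins are made in the cytosol, pass the membranes unfolded and fold inside. In the matrix HSPA9 (mortalin), an HSP70, pulls in and holds the incoming chain, GRPEL1 releases its bound nucleotide, and the barrel of HSPD1 (HSP60) with its lid HSPE1 (HSP10) folds the protein. LONP1 and the complex of the unfoldase CLPX with the peptidase CLPP degrade damaged matrix proteins, while the membrane-bound AAA proteases YME1L1 and AFG3L2 act on the intermembrane and the matrix side of the inner membrane. When unfolded protein builds up in mitochondria, cells can raise these genes through a program called the mitochondrial unfolded protein response.

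HSPD1 and HSPE1 are transcribed away from each other from 1 shared stretch of DNA, which is shown because both transcripts changed together. In the RefSeq promoter table (GRCh38.p14), the nearest listed start of HSPD1 lies at position 197500274 of chromosome 2 and that of HSPE1 at 197500379. The 104 bases between them, chr2:197500275-197500378, read as follows on the plus strand, toward HSPE1. Capitals mark 1 match to the site of nuclear respiratory factor 1 (NRF1; a palindrome with 1 free base) and 1 E-box, CACGTG, the letters recognised by MYC and related factors.
HSPD1-HSPE1: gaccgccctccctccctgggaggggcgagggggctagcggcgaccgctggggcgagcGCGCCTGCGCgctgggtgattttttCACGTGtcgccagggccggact

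The table held 9 windows of 300 bases (250 before and 50 after a start) for 7 of the 10 genes, and gave none for GRPEL1, CLPP or YME1L1. An E-box was found in 4 of these windows, those of HSPE1 and HSPA9 and 1 of the 2 each of HSPD1 and LONP1, against 7.26% of all 35116 windows. HSPD1 and HSPE1 share their E-box, so the 30-base stretches below stand for the 3 separate regions, each on the strand of its gene with the E-box in capitals.
HSPE1: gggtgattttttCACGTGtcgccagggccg
HSPA9: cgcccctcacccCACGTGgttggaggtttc
LONP1: ctcacagccttcCACGTGaccggaaaaggc
LONP1: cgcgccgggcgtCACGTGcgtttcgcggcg

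Counted from each start, the first base of the E-box lay at -22 in HSPE1, at -19 in HSPA9 and at -212 and -49 in LONP1. The NRF1 site was found in 4 of the 9 windows (HSPD1, HSPE1, CLPX and LONP1), against 5.78% of all windows. HSPD1 and HSPE1 share the 1 site in their common stretch, so these windows are not all separate regions. That stretch is 74.0% G and C, where the median over all windows is 58.7%. TGANGCAA, a form of the site of ATF and C/EBP factors, was found in 0 of the 9 and in 3.22% of all windows. The inverted repeats of the heat shock element were found in 1 (GAANNTTC, HSPD1) and 2 (TTCNNGAA, HSPA9 and HSPD1) windows, against 6.77% and 7.74% of all, and the cAMP response element TGACGTCA in 1 (TRAP1), against 1.85%. Both strands were searched, the motifs were picked after the sequences had been seen, and a match is a description of the letters, not of binding.

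Levels are FPKM, fragments per length of transcript and number of mapped reads, which sets genes of different length on 1 scale. With DMSO, HSPD1 was the most abundant of the 10 genes, ranking between 103 and 121 among the 12729 genes tested in each sample, and it made up 43.3% ± 1.38 of the summed FPKM of the 10 genes (SD, n = 3). HSPE1 followed, then HSPA9, TRAP1, CLPP and LONP1. YME1L1, GRPEL1 and AFG3L2 lay close together between 49.0 and 56.7 FPKM, and CLPX was lowest. The sum over the 10 genes was 2362, 2279 and 2165 FPKM in the DMSO samples against 1194, 1079 and 1051 FPKM in the BCT samples, so it was lower in every BCT sample.

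Fold changes were computed on log2(FPKM + 0.1). A gene was called where that change passed 0.85 in either direction with a false discovery rate (FDR) below 0.05. These thresholds are stated in the study's results, while its methods give an FDR of 0.01. The fit was by limma with Benjamini-Hochberg adjustment over the genes that averaged 1 FPKM or more. All 10 genes passed this filter. By this rule 4 of the 10 (HSPD1, HSPE1, TRAP1 and LONP1) were called lower with BCT, where 17.8% of all tested genes were called lower. None was called higher, where 13.9% of all genes were; at an unadjusted limma p under 0.05, 7 of the 10 were lower and 1 was higher. The FDR alone was passed by 8 of the 10 and by 82.1% of all genes, and the groups did not overlap in 9 of the 10 and in 85.3% of all genes, so neither of these sets the 10 genes apart. At least as many genes pass an unadjusted p of 0.05. Its shares by direction over all genes were not computed, so counts at that p, here and in the lists below, set no list apart. Their median log2 fold change was -0.73, against -0.04 over all tested genes. In bulk RNA, fewer cells with a transcript and less transcript in each cell cannot be told apart.

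The 6 samples held luminal prostate transcripts such as KRT8, FOXA1 and HOXB13, and 9 of 12 listed fibroblast, leukocyte and endothelial markers stayed under 1 FPKM in every sample. The exceptions were COL1A1 (1.23 to 6.31 FPKM), LUM (0.524 to 1.06 FPKM) and CD68 (2.05 to 8.16 FPKM); PTPRC and PECAM1 were at or near 0. Of the 8 luminal markers 6 had a negative log2 fold change (median -0.37): KLK3 (-2.95) and KLK2 (-1.61) were called lower, and the keratins KRT8 (1.17) and KRT18 (1.72) were called higher. Their summed level, carried by these keratins, was 978 to 987 FPKM with DMSO but 1946 to 2105 FPKM with BCT. The sum of the 5 fibroblast markers (2.57 to 2.73, then 5.83 to 7.03) followed COL1A1 alone, since LUM was at 0.925 to 1.06 FPKM with DMSO but 0.524 to 0.635 FPKM with BCT and the other 3 reached at most 0.192 FPKM. That of the 4 leukocyte markers (2.20 to 3.29, then 5.37 to 8.63) was nearly all CD68. The part of these markers in the results was not tested. In all 10 genes BCT replicate 1 was the BCT sample nearest to the DMSO mean. Leaving it out kept the same number of genes called lower (4). FPKM holds no counts; from genes of low value, relative depth was 0.877 to 1 with DMSO and 1.06 to 1.13 with BCT.

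The chaperonin HSPD1 was at 1044, 1002 and 903 FPKM in the DMSO samples against 448, 381 and 372 FPKM in the BCT samples. The groups lay far apart, with no BCT sample near the lowest DMSO sample. Its log2 fold change was -1.30 (standard error 0.085, 95% interval -1.49 to -1.10, limma adjusted p = 2.6e-06), or 2.46-fold lower, and 8.63% of all tested genes had a more negative value.

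HSPE1, its lid, was at 534, 489 and 496 FPKM in the DMSO samples against 216, 184 and 184 FPKM in the BCT samples. Again the groups lay far apart, and HSPE1 had the most negative log2 fold change of the 10, -1.38 (standard error 0.074, 95% interval -1.55 to -1.21, limma adjusted p = 1.3e-06). Both genes are listed in the files with 1 joint position on hg19, chr2:198351308-198418423, together with MOB4 and the read-through transcript HSPE1-MOB4. HSPE1-MOB4 stayed between 0.092 and 0.554 FPKM, and MOB4 was at 28.0 ± 0.612 FPKM with DMSO and 42.0 ± 1.29 FPKM with BCT (SD, n = 3), so the third gene of this locus did not follow the pair. In GENCODE, 7.41% of the annotated exon bases of HSPE1 and 1.77% of those of HSPD1 lie in exons of the other gene. Reads from these bases cannot be assigned to 1 gene, since the library kit did not mark strand.

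The proportion of the 2 chaperonin transcripts was similar in the groups. The ratio of HSPD1 to HSPE1 was 1.95, 2.05 and 1.82 with DMSO and 2.07, 2.07 and 2.03 with BCT. No difference was detectable in 3 samples a group, as the log2 ratio differed by 0.09 (standard error 0.050; two-sided exact permutation p = 0.2). A ratio within a sample does not change when that sample is multiplied by any factor, but a correction that differs between genes can change it. With 3 samples against 3, such a test cannot give a p below 0.1, so no ratio here can pass a threshold of 0.05.

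HSPA9 was at 222, 230 and 209 FPKM in the DMSO samples against 135, 124 and 122 FPKM in the BCT samples, without overlap. Its log2 fold change of -0.79 (95% interval -0.93 to -0.66, limma adjusted p = 4.7e-06) passed the FDR but not the fold change threshold, which lies inside the interval. The call depends on the processing: the log2 fold change was -0.98 and called lower after the correction for GC content and length, and -0.026 after rescaling to equal sums. It is listed at chr5:137890571-137911318 of hg19 on the minus strand.

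GRPEL1, the exchange factor of HSPA9, was at 53.0, 52.7 and 53.2 FPKM in the DMSO samples against 50.6, 50.2 and 48.8 FPKM in the BCT samples. The samples were tight within each group and the groups differed little. The log2 fold change was -0.09 (95% interval -0.19 to 0.01, limma adjusted p = 0.097), which keeps any change of the deposited values within about 0.19 on the log2 scale; its sign turned after quantile normalization and after either rescaling to equal sums. The ratio of HSPA9 to GRPEL1 was 3.93 to 4.36 with DMSO but 2.47 to 2.66 with BCT, a difference of -0.71 on the log2 scale (standard error 0.055; exact permutation p = 0.1, the smallest possible).

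TRAP1, the HSP90 of mitochondria, was at 163, 158 and 158 FPKM in the DMSO samples against 80.1, 75.3 and 66.6 FPKM in the BCT samples. The groups did not overlap, with a log2 fold change of -1.11 (standard error 0.069, 95% interval -1.27 to -0.95, limma adjusted p = 2.1e-06). Its listed position, chr16:3702940-3767598 on the minus strand, is shared with DNASE1 on the other strand, and 28.5% of the annotated exon bases of TRAP1 in GENCODE also lie in exons of DNASE1. The library kit did not mark strand, so reads there cannot be told apart. DNASE1 was at 4.14 ± 0.294 FPKM with DMSO and 5.58 ± 0.271 FPKM with BCT (SD, n = 3), far below TRAP1 in level.

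The cytosolic HSP90 genes gave -0.71 (HSP90AA1) and -0.76 (HSP90AB1) on the log2 scale, and HSP90B1 of the endoplasmic reticulum gave -1.98. The fold change of TRAP1 thus lay between those of its cytosolic and its endoplasmic reticulum relatives. The ratio of TRAP1 to HSP90AB1 was 0.224 to 0.242 with DMSO but 0.171 to 0.192 with BCT, a difference of -0.35 on the log2 scale (standard error 0.061; exact permutation p = 0.1).

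LONP1, the ATP-dependent matrix protease that also binds mitochondrial DNA, was at 86.7, 87.6 and 85.7 FPKM in the DMSO samples against 39.8, 35.4 and 32.4 FPKM in the BCT samples. The groups did not overlap, and the log2 fold change was -1.28 (standard error 0.074, 95% interval -1.45 to -1.11, limma adjusted p = 1.6e-06). Among the proteases of the 10 it was the only one called. It is listed at chr19:5691845-5720463 of hg19 on the minus strand, and 0.835% of its annotated exon bases overlap RPL36 on the other strand.

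CLPP, the peptidase of the other matrix protease, was at 115, 115 and 124 FPKM in the DMSO samples against 77.5, 74.9 and 71.9 FPKM in the BCT samples. Its log2 fold change of -0.66 (95% interval -0.78 to -0.53, limma adjusted p = 7.8e-06) passed the FDR but lay short of the fold change threshold, and its sign turned after rescaling to equal sums. CLPX, the unfoldase that feeds it, was at 37.9, 36.7 and 33.8 FPKM in the DMSO samples against 37.3, 40.9 and 41.0 FPKM in the BCT samples. These groups overlapped, and the log2 fold change was 0.14 (95% interval -0.01 to 0.28, limma adjusted p = 0.075).

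The 2 parts of the CLPXP protease stood in other proportions with BCT, without overlap between the groups. The ratio of CLPX to CLPP was 0.272 to 0.330 with DMSO but 0.482 to 0.570 with BCT, so that CLPP remained the more abundant transcript in every sample. The log2 ratio was 0.80 higher with BCT (standard error 0.113; exact permutation p = 0.1).

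YME1L1 was at 55.9, 56.7 and 53.5 FPKM in the DMSO samples against 64.5, 71.9 and 71.5 FPKM in the BCT samples, the only one of the 10 with all BCT samples above all DMSO samples. Its log2 fold change of 0.32 (95% interval 0.19 to 0.45, limma adjusted p = 0.00083) passed the FDR but not the fold change threshold. In the files a start on the other strand lies within 1000 bases of a start of the 10 genes only once: MASTL, a mitotic kinase gene, starts 404 bases from YME1L1. MASTL was at 13.1 ± 0.0262 FPKM with DMSO and 8.06 ± 0.601 FPKM with BCT (SD, n = 3), a log2 fold change of -0.70, with the sign opposite to that of YME1L1. Of the annotated exon bases of YME1L1, 6.04% also lie in exons of MASTL on the other strand. The joint listing of HSPD1 and HSPE1 hides their own starts from this search.

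AFG3L2 was at 51.4, 51.0 and 49.0 FPKM in the DMSO samples against 46.4, 42.6 and 41.2 FPKM in the BCT samples. The log2 fold change was -0.22 (95% interval -0.35 to -0.09, limma adjusted p = 0.0073), short of the fold change threshold, and its sign turned after either rescaling to equal sums. AFG3L2 and YME1L1 were near equal with DMSO, at ratios of YME1L1 to AFG3L2 between 1.09 and 1.11, and apart with BCT, at ratios between 1.39 and 1.73 (log2 difference 0.54, standard error 0.101; exact permutation p = 0.1). AFG3L2 shares its listed position, chr18:12307668-12377275, with TUBB6 on the other strand, to which 11.7% of its annotated exon bases also belong. TUBB6 was at 23.7 ± 1.26 FPKM with DMSO and 32.6 ± 1.80 FPKM with BCT (SD, n = 3).

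**Figure D1:**
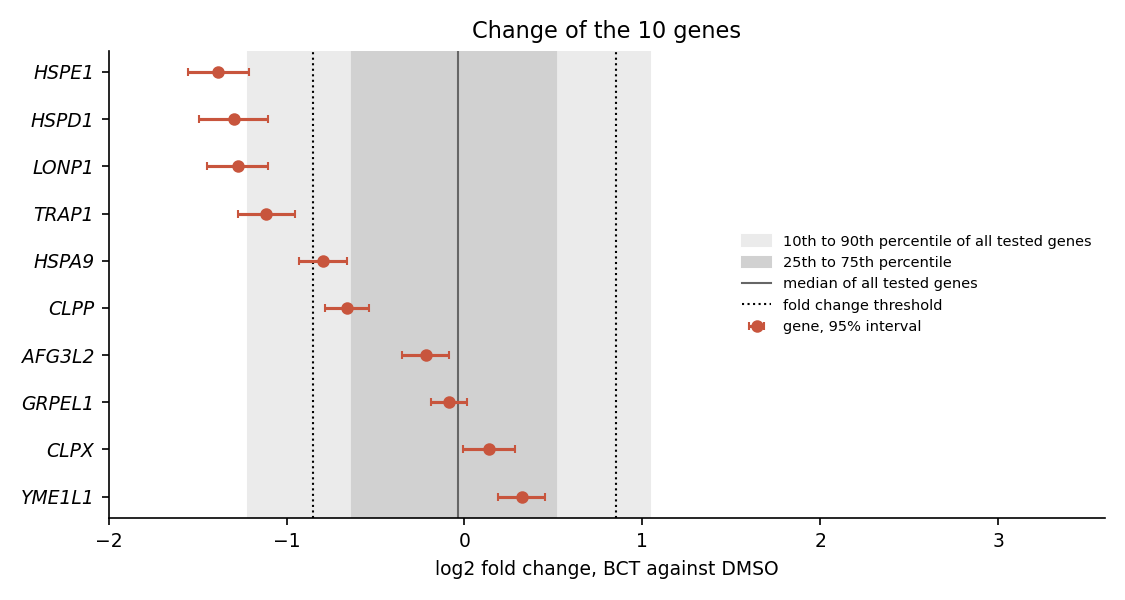
Log2 fold change of each of the 10 genes with BCT against DMSO, with 95% intervals from limma, over the middle ranges of all tested genes (grey bands), their median (line) and the fold change threshold of 0.85 (dotted). The intervals of HSPE1, HSPD1, LONP1 and TRAP1 lie wholly below -0.85, and those of GRPEL1 and CLPX include 0.

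The folding machines of the cytosol gave a mixed picture beside their mitochondrial relatives. TRiC, the cytosolic chaperonin related to HSPD1, had 0 of 8 subunits called, where 17.8% of all tested genes were called lower and 13.9% higher. The subunits had log2 fold changes from -0.45 to 0.12. At an unadjusted limma p under 0.05, 5 were lower and 0 higher. The ratio of HSPD1 to the TRiC subunit CCT2 was 3.24 to 3.48 with DMSO but 1.16 to 1.48 with BCT, which is 2.68-fold lower (log2 difference -1.42, standard error 0.119; exact permutation p = 0.1).

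Of the 20 listed relatives outside the mitochondrial matrix, 3 were called lower and 0 higher, against 17.8% and 13.9% of all tested genes. Their median log2 fold change was -0.14. At an unadjusted limma p under 0.05, 11 were lower and 6 higher. Those called lower were HSP90B1 and the listed HSP70 relatives of HSPA9, HSPA8 and HSPA5. Other HSP70 genes were not read here. HSPA8 of the cytosol was at 1052, 1043 and 971 FPKM in the DMSO samples against 500, 272 and 266 FPKM in the BCT samples, where replicate 1 stood apart, and HSPA5 of the endoplasmic reticulum had a log2 fold change of -1.25. The ratio of HSPA9 to HSPA8 was between 0.211 and 0.220 with DMSO, and 0.269, 0.455 and 0.459 with BCT (log2 difference 0.83, standard error 0.255; exact permutation p = 0.1). The 6 AAA ATPases of the proteasome, of the same ATPase class as YME1L1, AFG3L2 and LONP1, ranged from 0.17 to 0.83. Of these 0 were called, where 13.9% of all tested genes were called higher, and 6 were higher at an unadjusted limma p under 0.05.

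Genes that work with the 10 inside mitochondria were read from fixed lists. Of 10 other mitochondrial chaperones and cochaperones, 1 was called higher and 0 lower, against 13.9% and 17.8% of all tested genes. Their median log2 fold change was -0.07. At an unadjusted limma p under 0.05, 3 were higher and 2 lower. The one called was HSCB, a J-domain partner of HSPA9 in iron-sulfur cluster assembly, at 16.9, 15.2 and 15.7 FPKM in the DMSO samples against 28.1, 30.5 and 29.2 FPKM in the BCT samples (log2 fold change 0.87). GRPEL2, the second exchange factor of HSPA9, had a log2 fold change of 0.74, and CLPB, a disaggregase of the intermembrane space, had -0.77. The ratio of GRPEL2 to GRPEL1 was 0.255 to 0.277 with DMSO but 0.432 to 0.510 with BCT, a pair picked after its values were seen.

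Of 16 other proteases and their scaffolds, 5 were called lower and 0 higher, against 17.8% and 13.9% of all tested genes. Their median was -0.44. At an unadjusted limma p under 0.05, 13 were lower and 1 higher. PMPCA, the recognition subunit of the peptidase that removes import signals, was at 68.0, 68.1 and 64.8 FPKM in the DMSO samples against 26.9, 22.0 and 20.5 FPKM in the BCT samples (log2 fold change -1.54). Its catalytic partner PMPCB had -0.33, and the ratio of PMPCA to PMPCB, again picked after its values were seen, was 1.06 to 1.14 with DMSO but 0.429 to 0.542 with BCT. MIPEP, which trims a further stretch from some imported proteins, had -1.31, the oligopeptidase NLN -1.08, LACTB -0.99 and PHB, a scaffold of AFG3L2 in the inner membrane, -0.96. SPG7, which forms mixed rings with AFG3L2, had -0.50, and OMA1, the stress-activated protease that works beside YME1L1, had -0.33.

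Of 25 genes of protein import, 4 were called lower and 2 higher, shares below the 17.8% and 13.9% of all genes, with a median of -0.34; at an unadjusted limma p under 0.05, 13 were lower and 7 higher. The 4 lower genes were TOMM5 (-1.74), TIMM21 (-0.95), TOMM22 (-0.90) and TOMM20 (-0.87), of which TOMM20 and TOMM22 are receptors of the outer membrane. The 2 higher genes were TIMM17B and GFER, an oxidase of the intermembrane space import route (1.24). TIMM17B, a channel subunit of the inner membrane, was at 11.9, 12.4 and 12.3 FPKM in the DMSO samples against 43.8, 50.7 and 49.7 FPKM in the BCT samples (log2 fold change 1.97). Its paralog TIMM17A was at 80.4 ± 3.01 FPKM with DMSO and 80.3 ± 1.90 FPKM with BCT (SD, n = 3; 95% interval of the log2 fold change -0.12 to 0.11).

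Common markers of mitochondrial mass had the same median log2 fold change as the 10 genes, -0.73, and it was negative in all 12. The 4 of 12 markers called lower, against 17.8% of all tested genes, were SDHA (-1.11), IMMT (-0.97), CS (-0.96) and VDAC1, the main outer membrane channel (95% interval -1.18 to -0.83). No member of that list was called higher, against 13.9% of all tested genes, and none was higher at an unadjusted limma p under 0.05. Whether less mitochondrial transcript in general has a part in the lower values of the 10 genes was not tested.

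Among regulators tied to the mitochondrial unfolded protein response, calls were in the other direction. Of 13 tested, 3 were called higher and 0 lower, against 13.9% and 17.8% of all tested genes, with a median of 0.35. At an unadjusted limma p under 0.05, 8 were higher and 3 lower. ATF4 was at 532, 537 and 514 FPKM in the DMSO samples against 1559, 1845 and 1759 FPKM in the BCT samples (log2 fold change 1.70). DDIT3 (CHOP) had 1.92 and HSF1, the heat shock factor, had 1.17. ATF5, the factor most closely tied to this response in mammals, was at 64.0, 58.2 and 65.9 FPKM in the DMSO samples against 83.2, 73.8 and 79.1 FPKM in the BCT samples, a log2 fold change of 0.33 (95% interval 0.17 to 0.48, limma adjusted p = 0.0017) short of a call. The cytosolic relay of mitochondrial stress gave -0.82 for the kinase EIF2AK1 and -0.46 for DELE1, listed under its older name KIAA0141.

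The size of each change rests on the scaling of the samples. The values of a DMSO sample sum to more FPKM than those of a BCT sample, and MIR6087 made up 43.5% to 55.3% of the sum with DMSO and 31.7% to 32.5% with BCT. Forcing equal sums lifted the median of all genes to 0.72, and then 0 of the 10 were called lower and 2, CLPX (0.90) and YME1L1 (1.09), were called higher; at an unadjusted limma p under 0.05, 4 were lower and 4 higher. Relative to the median of all genes, a single factor per sample changes almost nothing: HSPD1, HSPE1, TRAP1 and LONP1 lay 1.26, 1.35, 1.08 and 1.24 below it in the deposited values. As deposited and under 4 of the 5 other scalings, 8 of the 10 genes lay below that median and CLPX and YME1L1 above it, and after quantile normalization 7 did.

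**Figure D2:**
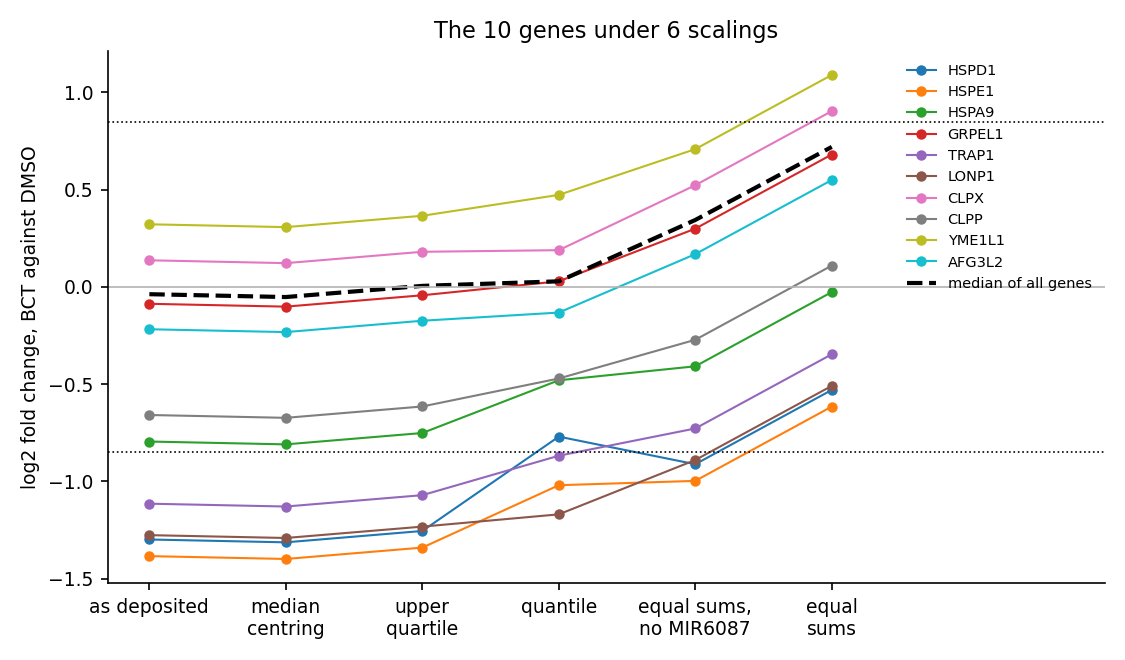
Log2 fold change of the 10 genes as deposited and under 5 other scalings, with the median of all tested genes (dashed) and the threshold of 0.85 (dotted). Equal sums lift all 10 genes along with the median, to 0.72, and only quantile normalization alters their distances from one another to a visible degree.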

How the data were processed

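RNA from 22RV1 cells was sequenced as paired-end reads from libraries of the TruSeq RNA Library Prep Kit v2. Reads were trimmed by the authors with Trimmomatic (0.38 per the labels) and mapped by HISAT2 to build hg19/GRCh37, and StringTie gave the deposited FPKM, 1 value for each gene and sample; the gene annotation is not given in the sources used here. HTSeq is also listed in the submitters' processing notes, with no role.

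FPKM values were used as deposited. Moderated fits with a variance trend were run on log2(FPKM + 0.1) by limma 3.58.1 (R 4.3.3) for the 12729 genes that averaged 1 FPKM or more, with Benjamini-Hochberg adjustment, and were tested on simulated data. The fold change understates the change of genes of low value. Ratios were tested by exact permutation in scipy 1.17.1. The files give depth only relative to another sample, from genes of low value, so no count test was run. Listed starts were raised by 1. Transcript GC content and exon overlaps came from GENCODE (lifted to GRCh37), which covered 97.4% of tested genes.

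The 10 genes, the lists and the named genes were chosen with earlier results of these data known. Named were the 10 genes, opposite-strand neighbours within 1000 bases, ratio partners and, per list, the called genes (all if at most 6, otherwise the 4 with the largest change and up to 2 in the other direction). DNASE1, TUBB6, RPL36, GRPEL2, CLPB, PMPCB, SPG7, OMA1, PARL, TIMM17A, ATF5, EIF2AK1, DELE1, HSP90AA1, VCP and the markers were named outside this rule, after their values were seen. Alternatives covered pseudocount, filter, scaling, FDR, variance model, the replicate block and each sample left out; the correction for GC content and length (loess, span 0.5) was added after the data were seen.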

Additional observations from a re-analysis of the deposited data

How the results depend on the processing

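Of 220 values for the fold changes of single genes, 204 kept their direction and their side of the threshold, 6 lost the call, 4 gained one and 6 turned sign. Settings that changed only the filter, the FDR, the variance model, the test or the block could not move a fold change. The count of 204 therefore overstates how stable the values are. Rescaling to equal FPKM sums gave 0 genes called lower and 2 called higher, and turned GRPEL1 (0.68), CLPP (0.11) and AFG3L2 (0.55); without MIR6087 it turned GRPEL1 (0.30) and AFG3L2 (0.17). Quantile normalization turned GRPEL1 (0.029) and took the call from HSPD1 (-0.77). TRAP1 lost its call under both rescalings (-0.35 and -0.73), HSPD1, HSPE1 and LONP1 under equal sums with MIR6087. These rescalings move every gene by construction. The correction for GC content and length gave HSPA9 a call at -0.98, with and without the block. Each of the 7 ratios moved by less than the spread between replicates under 2 other pseudocounts and with each sample left out. Leaving out 1 of 3 samples cannot move a group mean by more than that spread, and these pseudocounts are small beside the levels. This outcome was therefore fixed in advance and is no test of the ratios.

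Leaving out any 1 sample kept 4 genes called lower and 0 called higher, as did the stricter FDR of 0.01 and the test against the fold change threshold. Samples of both groups carry the numbers 1 to 3, but the correlation of their deviations from the group means was 0.116, 0.033 and 0.034 in same-numbered samples, and DMSO replicate 2 correlated better with BCT replicate 3 (0.074), so the numbers were not taken to pair samples. The replicate block left the calls at 4 lower and 0 higher among the 10, and at 2266 and 1767 over all genes.

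FPKM keeps no counts, so no counting interval can be given for any gene, and 3 samples in each group limit the exact tests to p = 0.1.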
